A study of Mus musculus with 8 samples.

Results

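The hepcidin and BMP iron-sensing pathway was read in mouse brain through 10 named genes: Hamp, Bmp6, Hjv (Hfe2 in older annotation), Neo1, Tmprss6, Bmpr1a, Acvr1, Smad4, Smad7 and Id1. They were chosen by name, for their known place in the pathway, from the 16593 gene symbols on the array. That choice, and the choice of the gene lists used below, was made with earlier results of these data known. Every probe of each gene was followed with its detection p-value. Of the 10 genes, 9 had a probe (12 probes in all) and Smad7 had none. Brains of 4 Hfe-/-xTfr2mut males and 4 wild-type males of the AKR strain, aged 13 weeks, were hybridized to the 8 positions of a single Illumina MouseRef-8 BeadChip, with the groups in alternating positions. The Hfe-/-xTfr2mut mice were homozygous for both mutations and ate 2% carbonyl iron for 3 weeks before they were killed, whereas the wild-type mice stayed on a diet with about 0.02% iron. Genotype and diet therefore changed together and cannot be told apart. All mice were perfused with saline before the brain was taken. Signals are cubic-spline-normalized, background-subtracted intensities, which can fall below 0, and a probe is called detected in an array where its detection p-value is under 0.01.

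Hepcidin, the product of Hamp, is a small peptide hormone made mainly by hepatocytes that binds ferroportin, the cellular iron exporter, and causes its removal from the membrane. In liver, iron raises Bmp6, which is made by endothelial cells and acts on hepatocytes through type I receptors such as those encoded by Bmpr1a and Acvr1, with hemojuvelin (Hjv) as co-receptor. The receptors phosphorylate SMAD1 and SMAD5, which enter the nucleus with SMAD4 and switch on Hamp, Id1 and Smad7. HFE and TFR2 feed into this route in hepatocytes, and the protease encoded by Tmprss6 damps it by cleaving hemojuvelin. In brain, BMP signalling is known above all for patterning and for the control of neural stem cells and glia.

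The Hamp promoter is where the BMP and interleukin-6 arms of the pathway meet, and it is shown beside Id2 and Id4, BMP target genes that were measured here and whose windows hold the same BMP letters. The windows are the 250 bases before the RefSeq transcription start (GRCm38.p6), written 5′ to 3′ on the gene's strand, with the BMP-responsive letters GGCGCC and the STAT letters TTCNNNGAA in capitals.
Hamp, chr7:30944030-30944279, minus strand: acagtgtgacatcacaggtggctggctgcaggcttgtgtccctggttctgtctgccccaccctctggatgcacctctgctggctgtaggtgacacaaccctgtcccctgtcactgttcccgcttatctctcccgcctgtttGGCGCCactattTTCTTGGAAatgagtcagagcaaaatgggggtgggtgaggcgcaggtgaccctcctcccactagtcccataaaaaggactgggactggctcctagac
Id2, chr12:25096093-25096342, minus strand: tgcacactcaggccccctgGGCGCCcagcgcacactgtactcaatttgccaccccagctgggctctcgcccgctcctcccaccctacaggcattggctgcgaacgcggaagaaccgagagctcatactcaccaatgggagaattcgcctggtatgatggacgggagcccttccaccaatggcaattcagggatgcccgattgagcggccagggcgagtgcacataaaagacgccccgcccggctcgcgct
Id4, chr13:48260866-48261115, plus strand: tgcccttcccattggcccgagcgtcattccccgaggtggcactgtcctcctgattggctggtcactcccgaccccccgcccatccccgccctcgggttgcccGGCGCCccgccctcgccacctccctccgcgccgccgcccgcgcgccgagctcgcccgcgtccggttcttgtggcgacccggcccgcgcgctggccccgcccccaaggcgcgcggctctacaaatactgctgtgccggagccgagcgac
In the Hamp window GGCGCC begins 109 bases and TTCNNNGAA 97 bases before the start, so the motifs do not overlap. GGCGCC begins 231 bases before the start of Id2 and 148 bases before that of Id4. Both motifs, and the SMAD palindrome GTCTAGAC that was also searched, read the same on either strand. Windows were found for 13 of the 20 members and target genes looked up; 6 genes held GGCGCC (Hamp, Id2, Id4, Neo1, Bmpr1a and 1 of the Gata2 windows), 1 held TTCNNNGAA (Hamp) and 0 held GTCTAGAC. Among all 32851 such windows 9.59% held GGCGCC, 7.02% TTCNNNGAA and 0.167% GTCTAGAC. These matches are letters in a window and not sites shown to be used.

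Between 11188 and 11751 probes were detected in the Hfe-/-xTfr2mut arrays and between 11568 and 12192 in the wild-type arrays, and the dimmest detected signal was 57.0 to 69.4 units in Hfe-/-xTfr2mut and 49.6 to 61.0 in wild-type arrays. Markers of the labelled tissue were present, with 7 of 8 neuronal (Snap25 was not), 8 of 8 astrocyte, 6 of 7 oligodendrocyte and 6 of 7 microglial genes that have a probe detected in at least 1 array. Of the disrupted genes, Hfe gave 337, 324, 314 and 356 units in Hfe-/-xTfr2mut arrays and 135, 129, 123 and 139.9 in wild-type arrays with its brighter probe, a log2 change of 1.34 (SE 0.089, limma adjusted p = 2.3e-05). No array detected the other Hfe probe or either Tfr2 probe. The sources used here do not say whether the brighter Hfe probe falls inside the disrupted part, so it is no check of the labels.

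Hepcidin transcript was found in 2 of the 8 brains, both wild-type. The Hamp probe (ILMN_1236304) read -14.2, 0.223, 7.20 and -4.01 units in Hfe-/-xTfr2mut replicates 1 to 4, and 7.90, 289, 313 and 26.1 units in wild-type replicates 1 to 4. It was detected in 0 of 4 Hfe-/-xTfr2mut arrays and in wild-type replicates 2 and 3. Wild-type replicate 1 lay just above the brightest Hfe-/-xTfr2mut array, so the groups did not overlap, but that gap lies within undetected signal. Since no Hfe-/-xTfr2mut array reached detection, no fold change can be given. The mean log2 signal of the 4 wild-type arrays lay 1.08-fold above the dimmest detected signals of the Hfe-/-xTfr2mut arrays. This value is no strict bound, because wild-type replicates 1 and 4 were undetected and replicate 1 was raised to 10 units. The probe did not meet the rule for testing, which asks that all 4 arrays of 1 group or the other detect it. The same arrays stood out in the deposited tables before normalization (326 and 251 units in wild-type replicates 2 and 3) and after Average normalization (299 and 298 units).

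**Figure D1:**
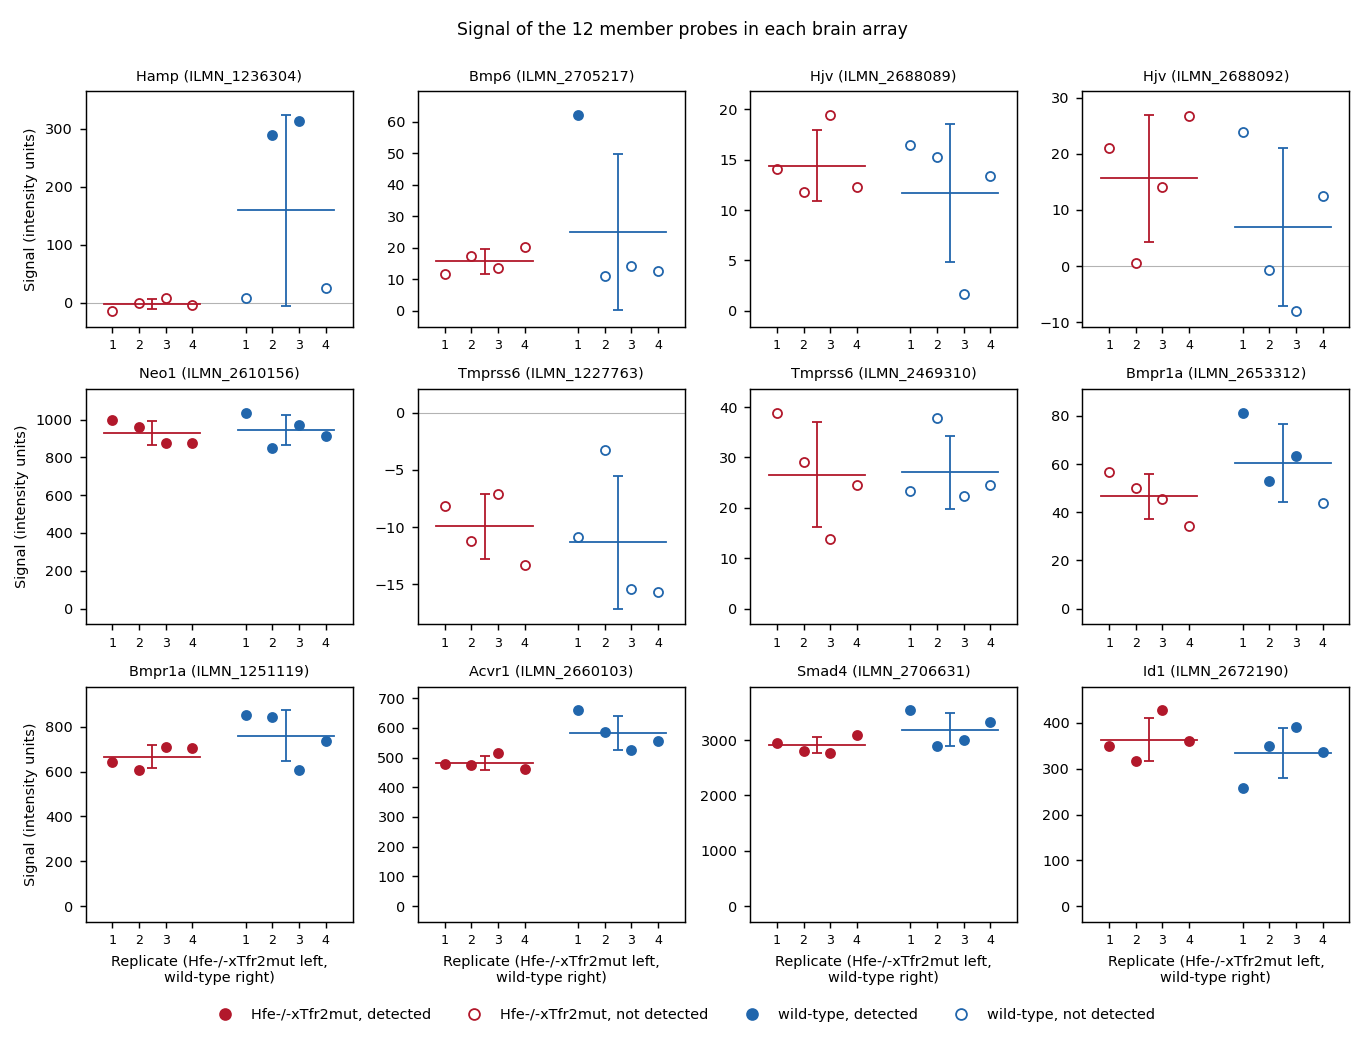
Signal of each of the 12 member probes (intensity units, linear axis) in Hfe-/-xTfr2mut replicates 1 to 4 (red, left) and wild-type replicates 1 to 4 (blue, right). Filled points are detected, open points are not, lines are group means and bars are SD over 4 arrays; Hamp is filled only in wild-type replicates 2 and 3, and Acvr1 is the member probe kept for testing whose groups do not overlap.

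Transcripts of hepatocytes were highest in the same 2 wild-type brains. Of 8 hepatocyte marker genes, 6 were detected in at least 1 array, and the 2 wild-type arrays with Hamp were the brightest for all 6 genes and all 8 of their detected probes, an order found for 2.27% of the 12874 probes detected in at least 1 array. The detected probes of Serpina1a, Cyp3a11 and Cps1 reached detection only in these wild-type arrays. For them the detection rule favoured this order, so they add little to the count. Apoa2, which encodes an apolipoprotein of high-density lipoprotein, read 167, 200.02, 739 and 359.6 units in Hfe-/-xTfr2mut arrays and 103, 1652, 2854 and 309.7 in wild-type arrays. Ahsg, which encodes the plasma protein fetuin-A, read 27.2, 10.8, 136 and 98.04 units in Hfe-/-xTfr2mut arrays and 26.0, 351, 612 and 45.3 in wild-type arrays with its brighter probe. In both genes the brightest arrays are the 2 with Hamp detected. Hfe-/-xTfr2mut replicate 3 ranked next after them for 5 of the 8 detected hepatocyte probes, and Hamp was not detected there.

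Summed over the 6 detected hepatocyte genes, signal ranged from 359.98 to 1241 units in Hfe-/-xTfr2mut arrays and from 233 to 4677 units in wild-type arrays. Wild-type replicates 2 and 3 held 2922 and 4677 units, whereas wild-type replicates 1 and 4 (233 and 604 units) lay within or below the Hfe-/-xTfr2mut range. Alb and Fgb, which encode albumin and the fibrinogen beta chain and are defining transcripts of hepatocytes, were detected in no array. Fga and Fgg, for the other fibrinogen chains and from the later list below, were detected in wild-type replicates 2 and 3. There Fga read 410 and 505 units with its brighter probe, and Fgg 287.5 and 302 units. Whether the Alb and Fgb probes read their transcripts was not tested. Each Hfe-/-xTfr2mut array detected 2 or 3 of the 8 marker genes, against 2, 6, 5 and 2 in wild-type replicates 1 to 4. Of 20 further genes of hepatocytes, a list made after these values had been seen, 18 had a probe and 14 were detected. Apoh, Fabp1, Mup20 and Pck1 were detected in no array. In this list 18 of 20 detected probes were brightest in wild-type replicates 2 and 3, and Hfe-/-xTfr2mut replicate 3 ranked next for 16 of these 18. Probes of Serpina1c, Hp, Hpx and Mup2 among them were also detected only in wild-type replicates 2 or 3, where the detection rule favoured this order. Because the list followed the values, its counts describe these arrays and test nothing. Serpina1b, Serpina1d, Apoc1, Rbp4, Gnmt and the brighter Mup2 probe of this later list were kept for testing. Their log2 changes ran from -2.03 (Mup2, unadjusted p = 0.0373, adjusted p = 0.368 by limma) to -0.0014 (Rbp4). Only Mup2 passed the unadjusted threshold, and the groups overlap for every one of these probes. Of the 8 marker genes, Apoa1 and Apoa2 were kept for testing. Their median log2 change was -0.93 over all arrays and 0.67 without wild-type replicates 2 and 3. Leaving out the wild-type arrays where both genes are brightest can only raise the change, so the second value tests nothing. The part of hepatocyte transcripts in the Hamp signal was not tested.

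**Figure D2:**
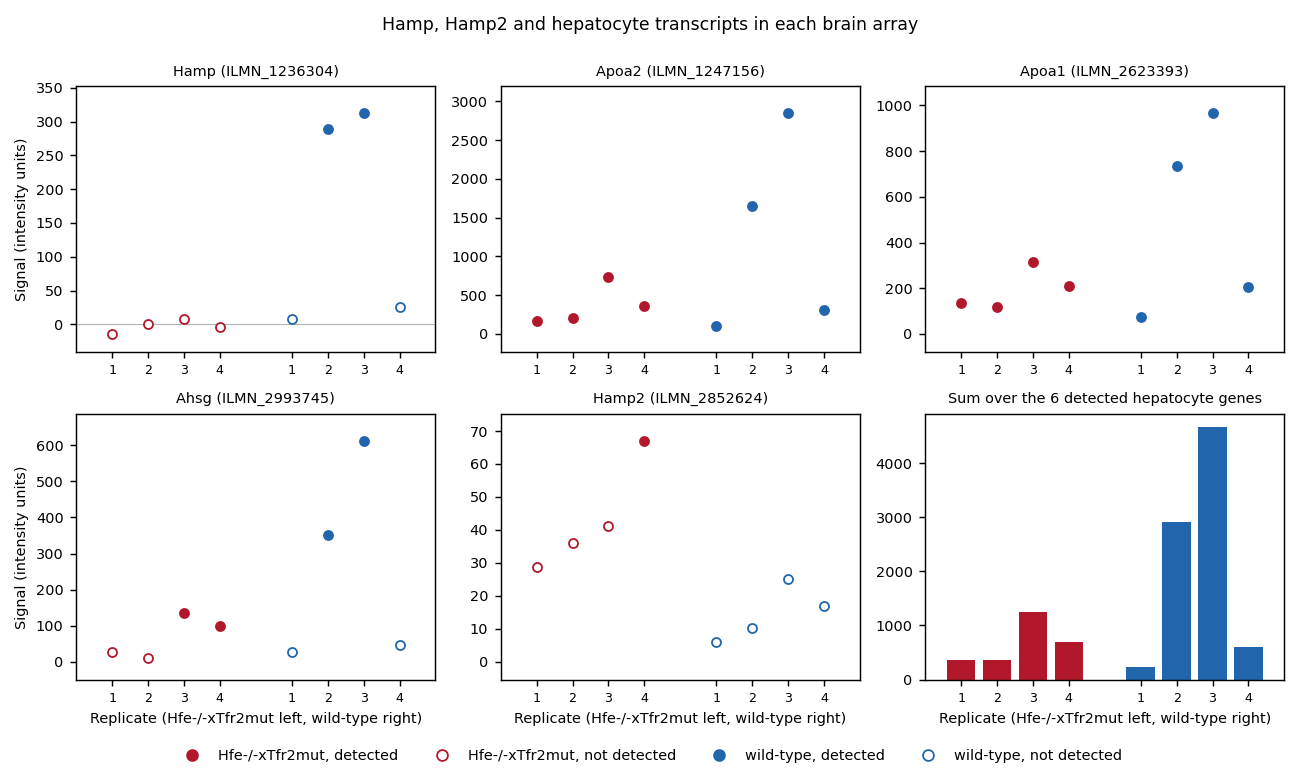
Signal (intensity units, linear axes) of Hamp, 3 hepatocyte genes and Hamp2 in Hfe-/-xTfr2mut replicates 1 to 4 (red, left) and wild-type replicates 1 to 4 (blue, right), filled where detected, with the sum over the 6 detected hepatocyte genes as bars. Wild-type replicates 2 and 3 are the brightest for Hamp (289 and 313 units) and for the sum (2922 and 4677 units), and not for Hamp2.

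Hamp2, the second hepcidin gene of the mouse, is outside the 10 genes and was looked at after its values were seen. Its probe read 28.8, 35.9, 41.3 and 67.1 units in Hfe-/-xTfr2mut arrays and 6.03, 10.3, 25.0 and 16.9 units in wild-type arrays, and it was detected only in Hfe-/-xTfr2mut replicate 4. The groups did not overlap, but 7 of the 8 values are undetected signal and no test was made. It did not follow the hepatocyte transcripts across the arrays. Hamp and Hamp2 are close copies, and the sources used here do not say how far each probe reads the other gene.

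Bmp6, Hjv and Tmprss6, which set the strength of this route in liver, were each detected in at most 1 brain array. Bmp6, the iron-regulated ligand of liver endothelium, read 11.5, 17.4, 13.5 and 20.4 units in Hfe-/-xTfr2mut arrays and 62.1, 11.2, 14.3 and 12.6 in wild-type arrays (ILMN_2705217). Only wild-type replicate 1 reached detection, and the groups overlap. Hjv, whose product is the hepatic co-receptor, was detected in 0 of 8 arrays by either probe, with 11.8 to 19.4 and 0.492 to 26.7 units in Hfe-/-xTfr2mut arrays and 1.65 to 16.4 and -8.00 to 23.8 units in wild-type arrays. Tmprss6, the hepatic protease that cleaves it, was likewise detected in 0 of 8 arrays, with -13.3 to -7.11 and 13.8 to 38.9 units in Hfe-/-xTfr2mut arrays and -15.7 to -3.29 and 22.4 to 37.8 units in wild-type arrays. These probes show that the transcripts were below detection on these arrays and not that they are absent from brain. The same limit holds for every gene called undetected here, the neuronal marker Snap25 among them.

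Other ligands and co-receptors of the same families were present. Of 13 ligand genes, 12 had a probe and 4 were kept for testing (Bmp4, Bmp7, Inhba and Inhbb), whereas Erfe, which encodes the erythroid suppressor of hepcidin, was detected in no array. Inhba, which encodes the activin A subunit, was the ligand that passed, with 250.2, 181, 239.97 and 206 units in Hfe-/-xTfr2mut arrays and 151, 136, 138 and 166 in wild-type arrays, a log2 change of 0.56 (SE 0.12, unadjusted p = 0.000843, adjusted p = 0.181 by limma). The groups did not overlap. The gene lies within 10 Mb of Hfe on chromosome 13, and the mutated region and the diet cannot be told apart there. Rgma, which encodes the neuronal member of the hemojuvelin family, read 905, 1264, 941 and 1143 units in Hfe-/-xTfr2mut arrays and 1208, 1138, 1223 and 1364 in wild-type arrays. Its log2 change was -0.22 (SE 0.12, limma adjusted p = 0.465) and the groups overlap. Rgmb, the third of the family, gave 113, 110.4, 69.7 and 104 units in Hfe-/-xTfr2mut arrays and 102, 131, 110.5 and 125 in wild-type arrays with its brightest probe (log2 change -0.26, SE 0.16, limma adjusted p = 0.514).

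All 4 co-receptor genes kept had negative changes, from -0.40 for Eng (endoglin, of endothelium) to that of Neo1. Neo1 encodes neogenin, a receptor of the hemojuvelin family that also serves in axon guidance, and it was detected in all 8 arrays. Its probe (ILMN_2610156) read 999.7, 961, 877 and 874 units in Hfe-/-xTfr2mut arrays and 1037, 852, 971 and 914 units in wild-type arrays. The arrays of both groups were interleaved. The log2 change was -0.02 (SE 0.098, 95% interval -0.24 to 0.19, limma adjusted p = 0.936), and it changed sign under 5 of the 20 alternatives.

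Among the receptors, Acvr1 fell in Hfe-/-xTfr2mut brains at the unadjusted threshold and Bmpr1a did not pass. Acvr1 encodes ALK2, a type I receptor for BMP6, and its probe (ILMN_2660103) read 477, 473, 516 and 461 units in Hfe-/-xTfr2mut arrays and 659, 586, 526 and 557 units in wild-type arrays. Every Hfe-/-xTfr2mut array lay below every wild-type array. The log2 change was -0.27 (SE 0.098, 95% interval -0.49 to -0.05), or 1.21-fold higher in wild-type, with an unadjusted p of 0.0193 and an adjusted p of 0.328 by limma. The two-sided exact permutation p was 0.0286, the smallest that 4 against 4 arrays allow. Without Hfe-/-xTfr2mut replicate 4 the unadjusted p was 0.0523.

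Bmpr1a encodes ALK3, the type I receptor through which liver sets basal hepcidin. Its brighter probe (ILMN_1251119) read 644, 606, 712 and 704 units in Hfe-/-xTfr2mut arrays and 852, 843, 608 and 737 units in wild-type arrays, where replicate 3 fell among the Hfe-/-xTfr2mut values. The log2 change was -0.18 (SE 0.12, 95% interval -0.45 to 0.09, limma adjusted p = 0.549). Its other probe (ILMN_2653312) was detected in 0 of 4 Hfe-/-xTfr2mut and 3 of 4 wild-type arrays, with 56.5, 49.99, 45.5 and 34.1 units in Hfe-/-xTfr2mut arrays and 81.4, 52.8, 63.5 and 43.7 in wild-type arrays, and it was not tested. Of the 7 receptor genes measured, 4 were kept (Bmpr1a, Bmpr1b, Acvr1 and Acvr2b), 3 of them with a negative change by the brightest probe. Bmpr1b had kept probes on both sides of 0, at 0.21 (SE 0.11, the brightest) and -0.26 (SE 0.17) on the log2 scale. Both Bmpr2 probes, for the main type II receptor of BMPs, were detected in no array, with at most 7.59 units in Hfe-/-xTfr2mut and 8.995 units in wild-type arrays. This does not show that Bmpr2 is absent from brain.

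Transcripts of Smad1, Smad4 and Smad5 were detected in every array, whereas Smad9, which encodes another SMAD that BMP receptors phosphorylate, was detected in none (-23.5 to -16.9 units in Hfe-/-xTfr2mut arrays and -17.4 to -5.86 units in wild-type arrays). Smad4, the partner of all receptor-activated SMADs, read 2949.5, 2809, 2768 and 3087 units in Hfe-/-xTfr2mut arrays and 3540.2, 2898, 3000 and 3325.5 units in wild-type arrays (ILMN_2706631). The groups overlap, and the log2 change was -0.13 (SE 0.097, 95% interval -0.35 to 0.08, limma adjusted p = 0.574). Smad5, 1 of the SMADs that BMP receptors phosphorylate, gave 522, 611, 604 and 614 units in Hfe-/-xTfr2mut arrays and 725, 618, 679 and 650.1 in wild-type arrays with its brightest probe. These groups did not overlap (exact permutation p = 0.0286), yet the log2 change of -0.19 (SE 0.097) had an unadjusted p of 0.0812 and an adjusted p of 0.446 by limma. Smad1, the close relative of Smad5, had probes on both sides of 0, at 0.03 (SE 0.087) and -0.05 (SE 0.13) on the log2 scale.

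By its brightest probe 0 of the 7 BMP target genes kept for testing passed the unadjusted threshold, but 3 did so under some alternatives: Gata2 under 6 of 20, Id4 with array weights (unadjusted p = 0.0174 by limma) and Id2 without wild-type replicate 1 (log2 change 0.41, unadjusted p = 0.0148 by limma). Id1, the classical BMP target and a repressor of differentiation factors, read 348, 316, 428 and 361 units in Hfe-/-xTfr2mut arrays and 259, 350.0, 389.9 and 336 units in wild-type arrays (ILMN_2672190). The groups overlap widely, and the log2 change was 0.13 (SE 0.14, 95% interval -0.18 to 0.44, limma adjusted p = 0.714). It was 0.0135 without wild-type replicate 1 and 0.0164 in the Average-normalized table. Of the 12 target genes, 11 had a probe and 7 were kept for testing. Smad6, Bambi, Atoh8 and Msx2, of which Smad6 and Bambi encode feedback inhibitors of the receptors, were detected in no array, and Smad7 could not be read.

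The Id genes, whose products hold back basic helix-loop-helix factors, all had positive changes, under each of the alternatives run. Id2 read 1906, 1963, 2335 and 1806 units in Hfe-/-xTfr2mut arrays and 2125.5, 1734, 1224 and 1582 in wild-type arrays (log2 change 0.29, SE 0.16, limma adjusted p = 0.470). Its dimmer probe gave 168, 264, 316 and 282 units in Hfe-/-xTfr2mut arrays and 215, 214, 173 and 134 in wild-type arrays, a log2 change of 0.47 (SE 0.21) with an unadjusted p of 0.0432 and an adjusted p of 0.381 by limma, which missed the unadjusted threshold under 12 of the 20 alternatives. Id3 (0.24, SE 0.19) and Id4 (0.16, SE 0.098) had log2 changes with intervals that cross 0. In each of these probes the highest wild-type array exceeded the lowest Hfe-/-xTfr2mut array.

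Outside the Id genes, Hey1, a helix-loop-helix repressor also driven by Notch, and Msx1, a homeobox gene, changed by 0.02 (SE 0.10) and 0.08 (SE 0.12) on the log2 scale. Gata2, a transcription factor gene that BMP4 induces, was the 1 target with a negative change, at 148, 110.5, 178 and 117 units in Hfe-/-xTfr2mut arrays and 194, 165, 142 and 207 in wild-type arrays (log2 change -0.37, SE 0.17, unadjusted p = 0.0517, adjusted p = 0.396 by limma). In all, the change was positive in 6 of 7 target genes (median 0.13), against 50.1% of the 8051 genes tested (median 0.00), and 0 of 7 passed either threshold by the brightest probe. In the Average-normalized table Hey1 and Msx1 turned negative, leaving 4 of 7 positive with a median of 0.02, against a median of -0.09 over all probes there. Gata2 passed the unadjusted threshold in that table (log2 change -0.52, unadjusted p = 0.0251 by limma), so 1 of 7 was lower. Without Hfe-/-xTfr2mut replicate 3 the median of the target genes was 0.049.

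**Figure D3:**
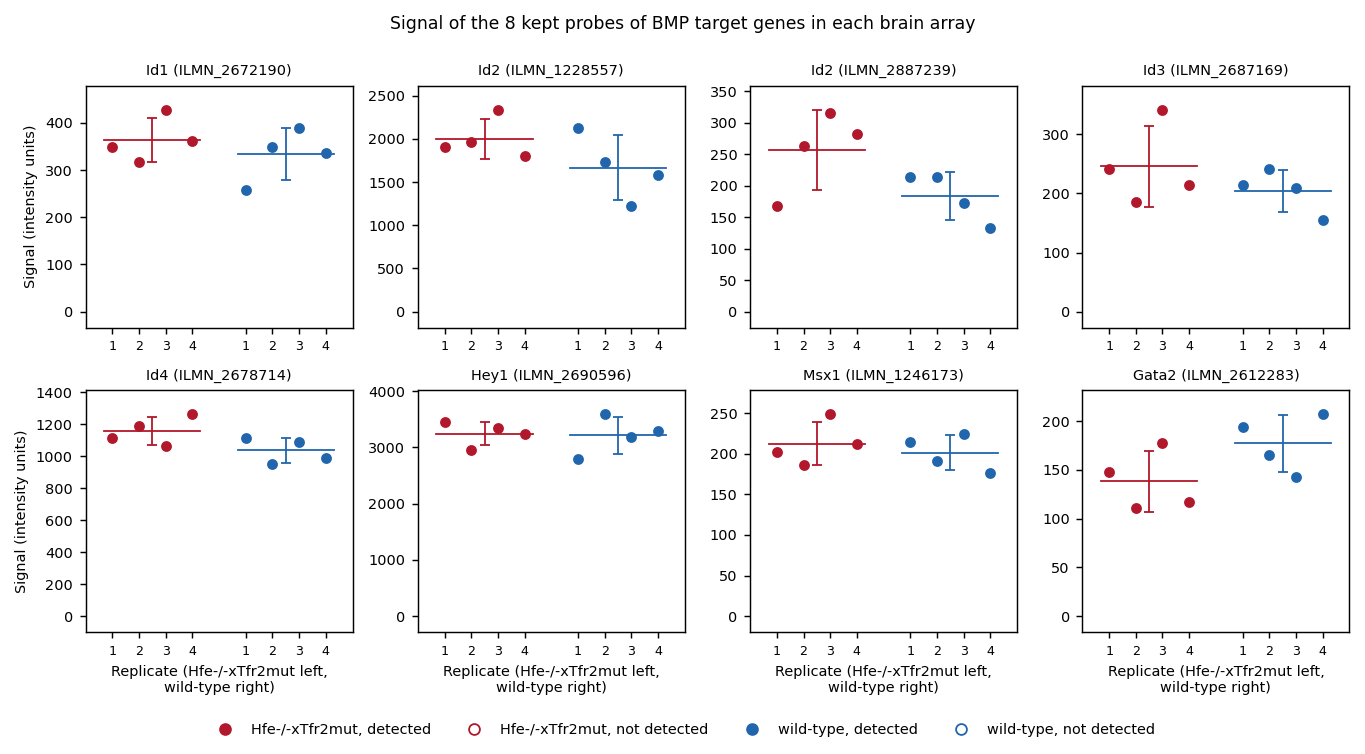
Signal (intensity units, linear axes) of the 8 kept probes of the 7 BMP target genes in Hfe-/-xTfr2mut replicates 1 to 4 (red, left) and wild-type replicates 1 to 4 (blue, right), with group means and SD. The groups overlap in all 8 panels, and Gata2 is the gene with the lower mean in Hfe-/-xTfr2mut arrays.

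At the member level, 5 of the 12 probes, for 5 genes (Neo1, Bmpr1a, Acvr1, Smad4 and Id1), were detected in all 8 arrays and tested. The other 7 probes were not tested, of which 4 were detected in no array. By limma 0 of the 5 passed an adjusted p of 0.05, against 0.17% of all 11204 probes tested, and 1 (Acvr1) passed an unadjusted p of 0.05, against 12.7% of all probes. None was higher at that threshold, against 6.72% of all probes, and 1 was lower, against 6.02%. With 1 probe of 5, that count says nothing particular about the members. Likewise 1 of 5 had groups without overlap, against 7.85% of all probes, and 4 of 5 had a negative change, against 50.4%. Because whole tissue was measured, fewer cells of a type and less RNA per cell cannot be told apart in any of these values.

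Over all 70 genes of the pathway lists, 66 had a probe and 37 were kept. Of these 37, 13 had a positive and 24 a negative change, with a median of -0.10, whereas 49.9% of all 8051 genes were negative and their median was 0.00. At the unadjusted threshold 2 were higher (Inhba and Hfe), against 6.79% of all genes, and 4 were lower (Acvr1, Furin, Tfrc and Jak2), against 5.71%. These counts were 2 higher and 12 lower in the Average-normalized table, 3 higher and 10 lower with array weights, and 2 higher and 1 lower without Hfe-/-xTfr2mut replicate 4. The counts over all 11204 probes, in either direction, moved too. They were 1427 in the main fit, 1845 in the Average-normalized table, 2190 with array weights and 1024 without that array. In the Average-normalized table the median change of all probes was -0.09. Hfe alone passed the adjusted p, against 0.211% of all genes.

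Among the pathway genes that passed, the iron-regulated Tfrc had the smallest p after Hfe and Inhba. Tfrc encodes transferrin receptor 1, whose transcript iron destabilizes through iron regulatory proteins, and its brighter probe read 1204, 1222, 1282 and 1280 units in Hfe-/-xTfr2mut arrays and 1700, 1669, 1384 and 1742 units in wild-type arrays. Its probes fell by 0.38 (SE 0.099) and 0.41 (SE 0.099) on the log2 scale, without overlap between the groups (limma unadjusted p = 0.00303 and 0.00173, adjusted p = 0.215 and 0.197). Slc40a1, which encodes ferroportin, the target of hepcidin, read 489, 779, 879.8 and 612 units in Hfe-/-xTfr2mut arrays and 749, 779, 787 and 733 in wild-type arrays. Its log2 change was -0.18 (SE 0.16, 95% interval -0.54 to 0.18, limma adjusted p = 0.652), with a wider spread over the Hfe-/-xTfr2mut arrays (SD 174 units) than over the wild-type arrays (SD 25.3 units). Without Hfe-/-xTfr2mut replicate 1 the change was -0.0246.

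Furin, which encodes the proprotein convertase that processes BMPs and hemojuvelin, read 1457, 1143, 1711 and 1354 units in Hfe-/-xTfr2mut arrays and 2031, 1618, 1546.5 and 1843.5 in wild-type arrays. Its log2 change was -0.32 (SE 0.14) with an unadjusted p of 0.0402 and an adjusted p of 0.376 by limma. The groups overlap, and it missed the unadjusted threshold under 7 of the 20 alternatives. Of the 8 extracellular inhibitors and proteases kept for testing, Furin among them, 4 had a positive and 4 a negative change, and the BMP traps Nog (0.16, SE 0.14) and Chrd (0.20, SE 0.28) did not pass. In the interleukin-6 arm, through which inflammation raises hepcidin, Il6, Il6ra and Il6st were detected in no array. For these genes too, signal below detection does not show absence from brain. Jak2, the kinase of that arm, had a log2 change of -0.30 (SE 0.14, unadjusted p = 0.0490, adjusted p = 0.390 by limma) with its brightest probe, which missed the unadjusted threshold under 9 of the 20 alternatives, and Stat3 one of -0.10 (SE 0.15).

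**Figure D4:**
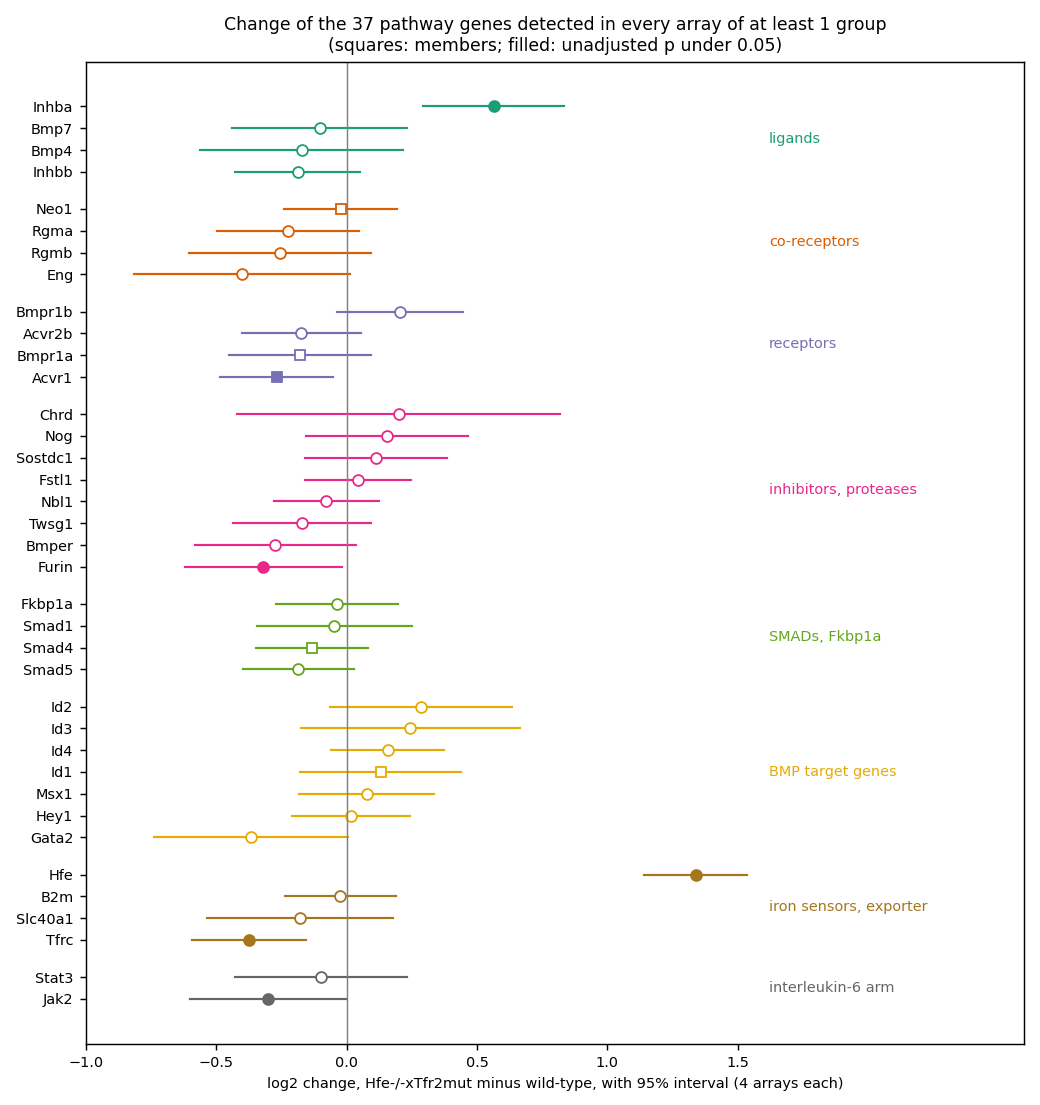
The log2 change, Hfe-/-xTfr2mut minus wild-type, of the 37 pathway genes kept for testing, by role, with 95% intervals from limma (4 arrays each). Squares are members and filled symbols passed an unadjusted p of 0.05; of the 5 members only Acvr1 (-0.27) is filled, and the interval of each BMP target gene includes 0.

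Markers of other cell types were read beside these values. Sums run over all genes of a list detected in at least 1 array, not over the kept genes alone. Of 15 endothelial and mural genes, 14 had a probe, 10 were detected and 8 were kept (1 of them through 1 group alone), and all 8 had a negative change under each normalization tried. Without single arrays 6 to 8 of these 8 were negative, with 6 without wild-type replicate 4. Of these 8, 4 were lower at the unadjusted threshold (Flt1, Tek, Slco1a4 and Vtn), against 5.71% of all genes, and 0 passed the adjusted p of limma. With detection in all 8 arrays as the rule Slco1a4 is left out, 3 of 7 were lower at that threshold, and the median log2 change was -0.17 in place of -0.29. The summed signal was 3858 to 5524 units in Hfe-/-xTfr2mut arrays and 5432 to 5650 units in wild-type arrays. Cdh5 and Tie1, defining genes of endothelium, were detected in no array and Cldn5 has no probe. All 6 microglial genes kept had a positive change (5 of 6 in the Average-normalized table, with array weights and without some single arrays). Of these, 1 (Aif1) was higher at the unadjusted threshold, against 6.79% of all genes. That count was 0 in the Average-normalized table, without Hfe-/-xTfr2mut replicate 4 and without wild-type replicate 1. The sums were 2769 to 2881 units in Hfe-/-xTfr2mut arrays and 2277 to 2732 units in wild-type arrays. Oligodendrocyte genes had a negative change in 6 of 6 kept (5 of 6 in the Average-normalized table), with a median of -0.16 and sums of 52289 to 55598 units in Hfe-/-xTfr2mut arrays and 50362 to 61377 units in wild-type arrays. Neuronal genes had one in 5 of 6 (4 of 6 in the Average-normalized table and after the quantile and neqc normalizations), with a median of -0.11 and sums of 43923 to 48368 units in Hfe-/-xTfr2mut arrays and 44340 to 55736 units in wild-type arrays. For choroid plexus genes it was 5 of 7 (6 of 7 in the Average-normalized table, median -0.10), with 28881 to 37995 units in Hfe-/-xTfr2mut arrays and 31220 to 38870 units in wild-type arrays. For astrocyte genes it was 5 of 8 (median -0.090), with 52275 to 56841 units in Hfe-/-xTfr2mut arrays and 52669 to 61181 units in wild-type arrays. In each of these 4 lists 1 gene was lower at the unadjusted threshold (Cnp, Syt1, Kl and Aldh1l1 in that order), against 5.71% of all genes, and 0 passed the adjusted p of limma. These counts moved with the processing. With the replicate block 0 oligodendrocyte and 0 astrocyte genes were lower, and with array weights 4 oligodendrocyte genes. Without Hfe-/-xTfr2mut replicate 3 the count was 0 for neuronal and 2 for choroid plexus genes. Without wild-type replicate 3 it was 3 for neuronal genes. Of the red blood cell genes 2 were kept, Hbb-b2 through the Hfe-/-xTfr2mut group alone. Both Hba-a1 and Hbb-b2 were higher at the unadjusted threshold, against 6.79% of all genes, but not at the adjusted p of limma. With detection in all 8 arrays as the rule only Hba-a1 was left, with a log2 change of 1.06. The sums were 1753 to 4996 units in Hfe-/-xTfr2mut arrays and 1226 to 2239 units in wild-type arrays. The part of these cells in the changes of Acvr1, Tfrc, Eng or the other pathway genes was not tested.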

How the data were processed

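Total RNA of 8 mouse brains was labelled and hybridized by the authors to 1 Illumina MouseRef-8 v2 BeadChip. The authors subtracted background and normalized (Average or Cubic Spline) in GenomeStudio, and deposited 3 sets of intensity values (arbitrary units), each with a detection p-value per probe and array. The deposited detection p-values compare a probe with the negative control beads of its array. GenomeStudio's background settings and the probes' genome build were not given in the sources used here. A second copy of the cubic-spline values was not used, and 0 columns were left without a sample.

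Of 25697 probes, 23962 were named through their Entrez identifier from RefSeq, 16 by the platform annotation alone and 1719 not at all; 0 had several symbols. Probes that all 4 arrays of either group detected (detection p under 0.01) were kept (11204), cubic-spline signals under 10 were set to 10, and log2 values were fitted in limma 3.58.1 (R 4.3.3, with data.table at version 1.17.8) as Hfe-/-xTfr2mut minus wild-type with no covariate, Benjamini-Hochberg adjusted over the kept probes. The unadjusted threshold of 0.05 follows the study, which corrected for no multiple tests. For single probes a two-sided exact permutation test over 70 assignments was added, whose smallest p is 0.0286. Replicates are arrays of separate mice, and 4 per group limits the precision. A gene is represented by its brightest kept probe. Sums of marker lists instead run over all genes detected in at least 1 array, each by its brightest probe so detected. Signals under 10 were set to 10 in these sums. Where no array of a group detected a probe, a comparison with the limit of detection replaces the fold. It sets the mean log2 signal of the brighter group against, per array of the dimmer group, whichever is higher of the dimmest detected signal and that of the probe. Undetected signals of the brighter group enter it, with those under 10 set to 10, so it is no strict bound. The fit was tested on simulated data with known changes.

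The named genes are every member with all probes, pathway genes past the unadjusted threshold, all BMP target genes, Rgma, Rgmb, Bmpr2, Smad1, Smad5, Tfrc and Slc40a1, and the disrupted Hfe and Tfr2. The members and lists were chosen with earlier results of these data known, and the hepatocyte genes beyond the marker list, Hamp2, Eng, Erfe, Nog and Chrd after their values were seen. Alternatives were Average normalization, quantile normalization or neqc of the non-normalized signals, floors at 1 and 30, other detection filters, a replicate block, a covariate for BeadChip position, array weights, averaging a gene's probes, and leaving out each array; leaving out both wild-type arrays with Hamp was added after seeing the data. Arrays left out did not change which probes were kept.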

Additional observations from a re-analysis of the deposited data

Results flagged for a closer look

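In 4 of 57 groups of 4 arrays tested over the named probes, 1 array lay far from the other arrays of its group (the gap to its nearest neighbour over the range of the group above the 95% critical value of Dixon's test). Chance gives about 1 in 20 such groups, or 2.9 here. For Bmp6, wild-type replicate 1 (62.1 units, the only array with Bmp6 detected) stood above the others, with a gap of 0.857 of the range. For the brightest Rgmb probe, Hfe-/-xTfr2mut replicate 3 (69.7 units) stood below its group, with a gap of 0.831. For another Rgmb probe, wild-type replicate 4 (73.3 units) stood above its group, with a gap of 0.847. For Smad5, Hfe-/-xTfr2mut replicate 1 (522 units) stood below its group, with a gap of 0.897. The 2 Rgmb gaps are in different arrays and groups.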

How the results depend on the processing

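Over 23 single probes and 20 alternatives each, 402 of 460 values stayed on the same side of 0 and of the unadjusted threshold, 16 passed it newly, 29 no longer did and 13 changed sign; 19 probes kept their direction throughout. The sign changes were in small values. Neo1 was 0.0038 with BeadChip position as a covariate, 0.062 with array weights and -0.071 to 0.0238 without single arrays. Hey1 was -0.0087 in the Average table, -0.054 with array weights and -0.0495 to 0.0702 without single arrays. Msx1 was -0.0676 in the Average table and -0.0015 to 0.136 without single arrays, and the brightest Smad1 probe -0.157 to 0.0438 without single arrays. Member probes past the unadjusted threshold numbered 1, 2 with array weights and 2 with detection in at least 1 array, where Hamp is counted beside Acvr1 although no Hfe-/-xTfr2mut array detected it, so that its count there is no call, and 0 to 2 without single arrays (0 without Hfe-/-xTfr2mut replicate 4, 2 without wild-type replicate 3). Pathway genes past it numbered 6, 14 in the Average table, 13 with array weights and 3 to 8 without single arrays (3 without Hfe-/-xTfr2mut replicate 4). With array weights 3 pathway genes passed the adjusted p. All probes past the adjusted p numbered 19, 12 with detection in all 8 arrays, 7 with no filter, 118 with array weights and 14 to 23 without single arrays. Past the unadjusted p they numbered 1427, 1845 in the Average table, 2190 with array weights and 1024 to 1933 without single arrays. Without both wild-type arrays that hold Hamp, chosen after seeing the data, Acvr1 changed by -0.33, Id1 by 0.29 and Gata2 by -0.56 (unadjusted p = 0.0197, adjusted p = 0.270 by limma), with 1 member probe and 7 pathway genes past the unadjusted threshold. Replicate numbers did not pair the arrays (correlations of deviations of 0.13, -0.14, -0.40 and 0.11 for numbers 1 to 4, 2 of 8 arrays closest to their own number). With the replicate block 1128 probes passed the unadjusted and 15 the adjusted p, with 1 member probe and 7 pathway genes past the unadjusted p. Signal near background limits Hamp, Bmp6, Hjv, Tmprss6 and the dimmer Bmpr1a probe to statements about detection.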
